A study of Mus musculus with 6 samples.

Results

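The 9 genes described here encode 6 TRAF adaptors (Traf1, Traf2, Traf3, Traf4, Traf5 and Traf6) and 3 IAP ubiquitin ligases (Birc2, Birc3 and Xiap). They were picked out by gene symbol, with no threshold on any value, from the 48897 genes of the deposited table. All 9 were in the table and all 9 were among the 18563 genes that passed the low-count filter. Polyadenylated RNA had been sequenced from C57BL/6 mouse embryonic fibroblasts, connective tissue cells grown from embryos, at passages 5 to 7. The 3 groups were a control given phosphate-buffered saline (PBS), cells that received TNF-α with cycloheximide (TC), and cells that received z-VAD-fmk on top of both (TCZ), each represented by 2 libraries. The cytokine TNF-α drives inflammation, cycloheximide stops protein synthesis, and z-VAD-fmk inhibits caspases broadly. TNF-α and cycloheximide were given together in both treated groups, so their separate effects cannot be told apart. The sources used here give no doses and no times.

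TRAF proteins are trimeric adaptors that bind the cytoplasmic tails of TNF receptor family members, and TRAF6 also serves the IL-1 and Toll-like receptors. At TNF receptor 1, TRAF2 brings in the ubiquitin ligases cIAP1 and cIAP2, encoded by Birc2 and Birc3, which attach ubiquitin chains to RIPK1 and so favour NF-kB signalling over cell death. In resting cells the same ligases, held together by TRAF2 and TRAF3, keep the kinase NIK low and thereby hold back the noncanonical NF-kB pathway. XIAP binds and inhibits caspases directly. Traf1 and Birc3 are long known as NF-kB target genes. Because cycloheximide blocks translation, a rise of an mRNA in these cells says nothing about the level of its protein.

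Total counts ran from 24922627 to 52909926 per library, and control 2 (26834352) and TCZ 2 (24922627) were the shallowest. Replicate libraries differed by more than counting noise, the chi-square per gene being 4.42 for the control pair, 5.19 for TC and 7.24 for TCZ. The labels do not say whether replicate libraries stem from different cultures, so the p-values speak only to how far these libraries vary, and that variation may be technical. All 12 fibroblast markers had counts, with a summed level of 33015 to 37620 counts per 1e6 library counts (CPM) in every library, led by Fn1. Of these 12, 2 were higher and 8 lower in TC than in control, 1 higher and 3 lower in TCZ than in control, and 7 higher and 2 lower in TCZ than in TC. Summed macrophage and leukocyte markers were at 13.0 CPM in either control library, 11.8 and 13.5 CPM in TC, and 25.8 and 27.1 CPM in TCZ, where 4 of the 7 tested were higher than in control and 0 lower. Summed endothelial markers went from 12.6 and 13.2 CPM in control to 148 and 141 CPM in TC and 57.6 and 56.6 CPM in TCZ, with Kdr the most abundant, while of the 6 tested 2 were higher and 1 lower in TC than in control. Epithelial markers stood at 19.4 and 16.7, 82.0 and 75.1, and 17.8 and 13.4 CPM in the same order, with 4 of the 5 tested higher in TC than in control and 0 lower. Neural markers, led by Nes, ranged from 205 to 232 CPM in control and TC and stood at 114 and 118 CPM in TCZ, where 3 of the 4 tested were lower than in control and 1 higher. Over all genes tested, 60.7% passed (adjusted p under 0.05) in TC against control, 60.1% in TCZ against control and 56.1% in TCZ against TC. The part of these markers in the results below was not tested. In bulk RNA, fewer cells that express a gene and less RNA per cell cannot be told apart.

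Promoter windows of 3 genes are shown because they belong to the genes that rose most (Traf1 and Birc3) and to the riser whose window held a match to the NF-kB consensus (Traf3). Each runs from 250 bases before to 50 bases after the start site in RefSeq (GRCm38.p6) and reads 5′ to 3′ along the gene, and capitals mark the match.
Traf1, chr2:34961723-34962022, minus strand: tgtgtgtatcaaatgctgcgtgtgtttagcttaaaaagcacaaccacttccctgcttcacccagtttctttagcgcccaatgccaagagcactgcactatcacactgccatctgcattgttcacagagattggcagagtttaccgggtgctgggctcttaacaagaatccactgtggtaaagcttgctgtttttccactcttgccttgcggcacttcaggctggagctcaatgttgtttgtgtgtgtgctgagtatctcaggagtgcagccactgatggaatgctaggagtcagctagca
Birc3, chr9:7873121-7873420, minus strand: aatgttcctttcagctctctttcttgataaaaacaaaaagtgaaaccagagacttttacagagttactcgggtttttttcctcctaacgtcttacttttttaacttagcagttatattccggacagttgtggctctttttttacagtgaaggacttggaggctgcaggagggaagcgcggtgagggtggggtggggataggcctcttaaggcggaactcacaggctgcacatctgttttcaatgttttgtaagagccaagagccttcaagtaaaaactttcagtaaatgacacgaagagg
Traf3, chr12:111166120-111166419, plus strand: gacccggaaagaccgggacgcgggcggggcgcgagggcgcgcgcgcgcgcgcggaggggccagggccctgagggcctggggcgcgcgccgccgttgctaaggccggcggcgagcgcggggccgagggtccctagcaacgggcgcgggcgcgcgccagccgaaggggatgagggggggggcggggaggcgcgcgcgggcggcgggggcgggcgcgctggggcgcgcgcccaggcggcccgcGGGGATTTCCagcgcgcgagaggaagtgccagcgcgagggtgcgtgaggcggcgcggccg
The consensus was searched on both strands in windows of all 9 genes, 12 windows in all. It was found in 1 window of Traf3, as GGGGATTTCC on the plus strand 10 bases before the start site, and in 1 of the 3 windows of Xiap, as GGGACCCTCC after the start site. Of all 32851 promoter windows of this length, 8.46% held a match. The windows of Traf1, Birc3, Traf2, Birc2, Traf4, Traf5 and Traf6 held none, which says only that these letters are not in this window. The Traf1 window starts from a RefSeq start site that lies inside the gene span of the deposited table. A match is a description of the letters and not evidence of binding.

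TC was compared with control to see how the adaptors and ligases stood after TNF-α with cycloheximide. Traf1, Traf2, Traf3, Traf6, Birc2 and Birc3 rose, and Traf4, Traf5 and Xiap fell. Thus 6 of 9 members were higher and 3 of 9 lower (edgeR's quasi-likelihood test, adjusted p under 0.05), in a comparison where 60.7% of all 18563 genes tested passed, 31.5% higher and 29.1% lower. With library totals alone as the scale the split over all genes was 5080 higher and 6586 lower in place of 5856 and 5408, and that of the members 5 and 3. The background is broad, so a pass by itself does not set a member apart, and the sizes of change are given for each.

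**Figure D1:**
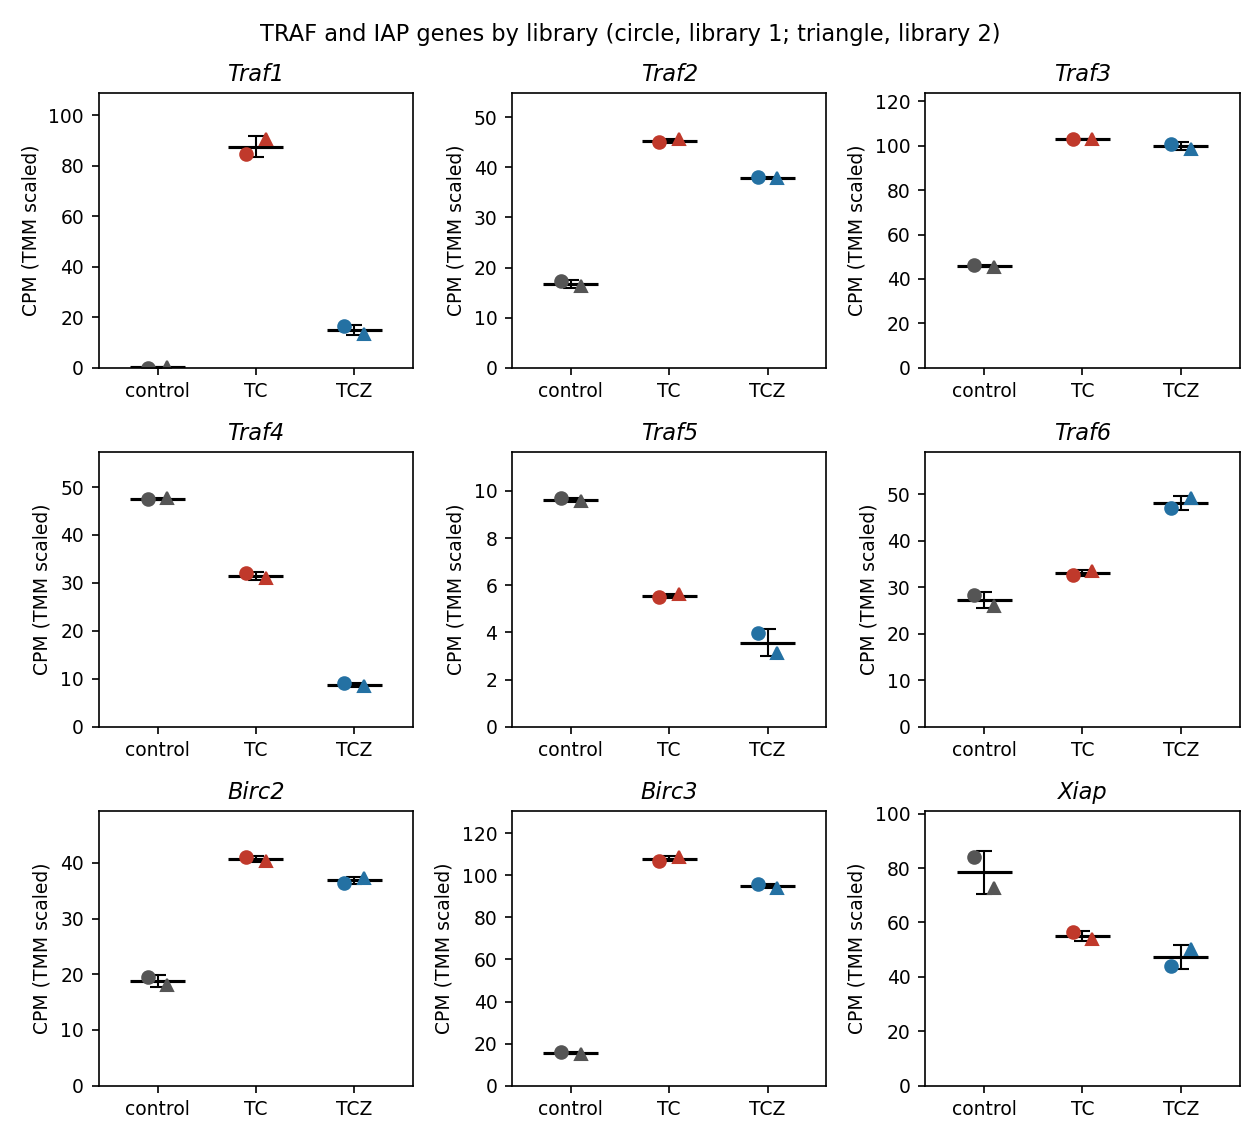
Level of each of the 9 genes (vertical axes, CPM scaled by TMM, linear from 0) in control, TC and TCZ. Circles and triangles are libraries 1 and 2, horizontal bars the mean and error bars the SD of 2 libraries. Traf1 is near 0 in control and peaks in TC at 87.6 CPM, whereas Traf4 goes down from 47.5 through 31.5 to 8.74 CPM.

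Traf1 (chromosome 2, 34941750 to 34962548, minus strand, mm10) encodes the TRAF without a RING domain, which pairs with TRAF2. Control 1 held 0 counts of it and control 2 held 8, whereas the TC libraries held 4108 and 4501 and the TCZ libraries 792 and 324. Control was thus almost without Traf1 reads, and no control library came near a treated one. The level was 0.133 ± 0.188 CPM in control, 87.6 ± 4.21 in TC and 14.9 ± 2.07 in TCZ (SD, n = 2 each). The TC to control ratio of summed counts was 861, with an exact 95% counting interval of 437 to 1996. The log2 fold change fitted by edgeR was 9.70 ± 0.25 (SE, adjusted p = 1.32e-18) and depends on the prior count. This SE is too small for a ratio that rests on so few control counts. DESeq2 on all 6 libraries gave 9.43 with an SE of 1.49 (adjusted p = 1.1e-09). The size of the edgeR value rests on the 8 counts of control 2. Without control 1 the log2 value was 8.35, and against control 2 alone the ratio was 330 (interval 167 to 765). Without control 2 no control count is left, and Traf1 in TC was at least 1417-fold higher than the 3-count floor of control 1. Counting intervals and floors cover counting error only.

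Traf2 and Traf3, the adaptors that hold the cIAP ligases, both rose. Traf2 (chromosome 2, 25517982 to 25546940, minus strand) measured 17.3 and 16.2 CPM in the control pair, 45.0 and 45.6 in the TC pair, and 38.1 and 37.9 in the TCZ pair. Its TC libraries lay well above control, and the log2 fold change was 1.43 ± 0.08 (adjusted p = 1.03e-12). Traf3 (chromosome 12, 111166370 to 111267155, plus strand), which brings NIK to the TRAF2 and cIAP complex, measured 46.3 and 45.4 CPM in control, 103 in each TC library, and 101 and 98.4 in TCZ. Both treated groups stood above control without overlap, and TC against control gave 1.17 ± 0.07 (adjusted p = 4.1e-12).

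Traf6 (chromosome 2, 101678420 to 101701668, plus strand), the adaptor of IL-1 and Toll-like receptor signalling, changed little in TC. It measured 28.4 and 26.01 CPM in control against 32.6 and 33.5 in TC. The log2 fold change was 0.28 ± 0.08 (adjusted p = 0.0047), and the call ended with library totals as the scale (0.14, adjusted p = 0.114) and without control 2 (0.21, adjusted p = 0.0724).

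Traf4 and Traf5 went the other way. Traf4 (chromosome 11, 78158423 to 78165569, minus strand), a TRAF best known from development and cell migration, measured 47.4 and 47.7 CPM in the control pair, 32.1 and 30.9 in the TC pair, and 9.07 and 8.4 in the TCZ pair. Each treated group lay below control and TCZ lay below TC. In TC it fell by 0.59 ± 0.08 on the log2 scale (adjusted p = 1.01e-06). Traf5 (chromosome 1, 191997203 to 192092599, minus strand), a close relative of TRAF2 in receptor binding, was the least deeply counted of these genes in control after Traf1. It measured 9.69 and 9.56 CPM in the control pair, 5.5 and 5.61 in the TC pair, and 3.96 and 3.14 in the TCZ pair, so that the 3 groups did not overlap. In TC it fell by 0.79 ± 0.15 (adjusted p = 8.33e-05). The deposited table places 3 other genes inside the span of Traf5. One of them, Gm3934 on the same strand, had 752 and 390 counts in control, where Traf5 had 470 and 288. Gm3934 had 467 and 457 counts in TC and 697 and 323 in TCZ, against 267 and 279, and 192 and 76, for Traf5. In GENCODE M21 the exons of Traf5 overlapped those of Mir3473c (65 bases) and Gm26879 (205 bases), and not those of Gm3934. The assignment of reads at this locus is uncertain and was not tested.

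Among the ligases, Birc3 rose most. Birc3 (chromosome 9, 7848699 to 7873210, minus strand), the gene of cIAP2, measured 15.9 and 15.2 CPM in the control pair, 107 and 108.6 in the TC pair, and 95.7 and 94.2 in the TCZ pair. Control was far below both treated groups, and the log2 fold change in TC was 2.79 ± 0.08 (adjusted p = 7.02e-18), a 6.92-fold rise. Birc2, the gene of cIAP1, lies next to Birc3 on the same strand (chromosome 9, 7818226 to 7837131). It measured 19.6 and 18.1 CPM in the control pair, 41.03 and 40.3 in the TC pair, and 36.5 and 37.4 in the TCZ pair, and rose by 1.11 ± 0.08 in TC (adjusted p = 8.81e-11), or 2.15-fold. The interval of Birc3 (2.63 to 2.95) lay above that of Birc2 (0.94 to 1.27), although the difference between the genes was not tested. Xiap (chromosome X, 42059615 to 42109664, plus strand) measured 84.0 and 72.8 CPM in the control pair, 56.4 and 53.7 in the TC pair, and 44.1 and 50.4 in the TCZ pair. In absolute CPM the control libraries differed most from each other here, but both lay above every treated library. In TC Xiap fell by 0.51 ± 0.08 (adjusted p = 1.39e-05).

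**Figure D2:**
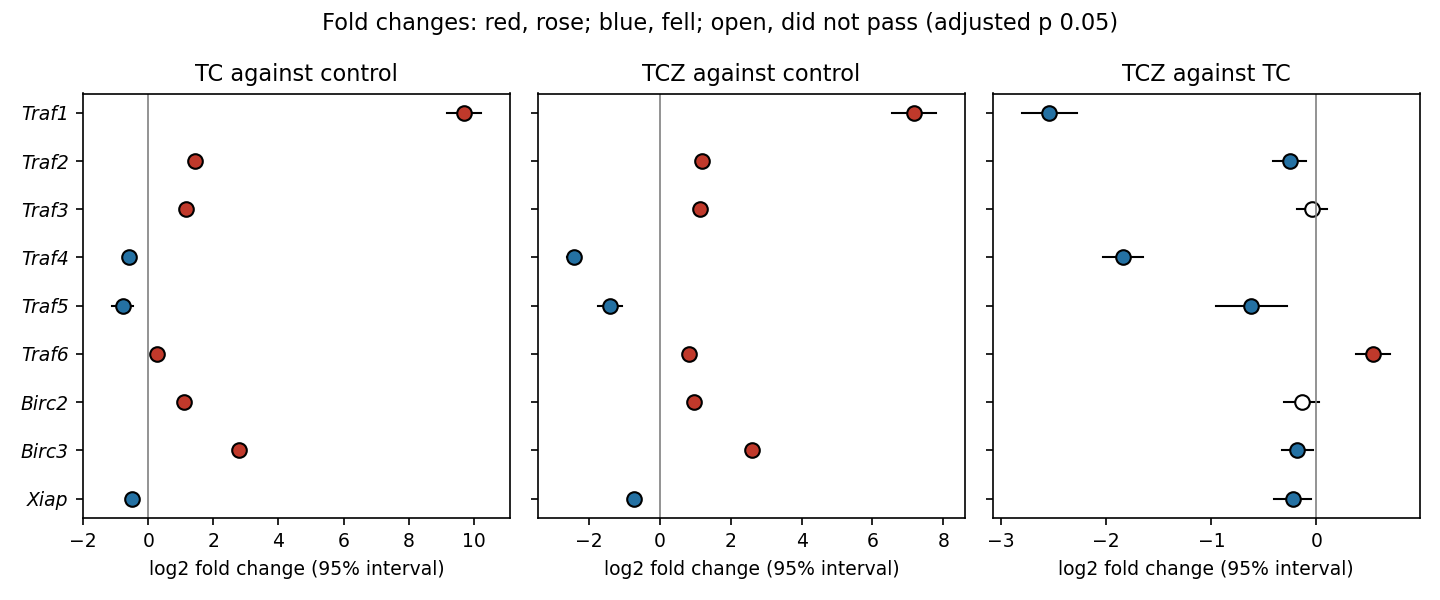
Log2 fold change (horizontal axes) of the 9 genes in the 3 comparisons, with 95% intervals from edgeR's quasi-likelihood fit. For Traf1 against control these intervals are too narrow, since DESeq2 on all 6 libraries gave an SE of 1.49 in TC and in TCZ. Red points rose, blue points fell and open points did not pass; between TC and TCZ, Traf3 and Birc2 are open while Traf1 and Traf4 lie at -2.54 and -1.84.

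Reads shared between similar sequences could blur these values. Of the distinct 50-base stretches in GENCODE M21 transcripts of Birc3, 7.56% also occurred in a transcript of another gene, most often Gm7019, which the deposited table does not list, followed by Birc2. For Birc2 the share was 1.49%, for Traf5 4.57%, and for Traf2 1.79%. Traf3 and Traf6 shared none, and Traf1 (0.133%), Traf4 (0.39%) and Xiap (0.888%) shared few. The sources used here do not say how the authors' counting treated such reads.

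TCZ was compared with control to ask how the genes stood when caspases were inhibited as well. Again 6 of 9 members were higher and 3 of 9 lower, the directions being those of TC, against 60.1% of all genes passing, 31.5% higher and 28.6% lower. With library totals alone as the scale the split over all genes was 4556 higher and 7017 lower in place of 5851 and 5313, whereas the members stayed at 6 and 3. Both comparisons share the control libraries, so their values are given side by side and not as independent results. Of the 3 that fell Traf4 changed most, at 8.74 ± 0.476 CPM against 47.5 ± 0.188 in control (SD, n = 2). It fell by 2.43 ± 0.09 on the log2 scale (adjusted p = 6.2e-16), or 5.41-fold, where TC gave -0.59. Traf5 fell by 1.41 ± 0.16 (adjusted p = 9.83e-08) and Xiap by 0.74 ± 0.08 (adjusted p = 1.22e-07). Traf6 rose by 0.82 ± 0.08 (adjusted p = 1.04e-08), against 0.28 in TC.

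Traf1 in TCZ was 151-fold above control by summed counts, with a counting interval of 76.3 to 350. Its log2 value by edgeR was 7.16 ± 0.30 (adjusted p = 4.44e-15), and this SE is again too small. DESeq2 on all 6 libraries gave 6.88 with an SE of 1.49 (adjusted p = 1.3e-05). Without control 1 the edgeR value was 5.80, and without control 2 Traf1 was at least 248-fold above the floor. Birc3 rose by 2.61 ± 0.08 (adjusted p = 1.69e-17) and Birc2 by 0.96 ± 0.08 (adjusted p = 1.22e-09). Traf2 rose by 1.18 ± 0.08 and Traf3 by 1.12 ± 0.07, with adjusted p-values of 3.87e-11 and 8.89e-12.

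TCZ was then compared with TC, groups whose treatments differ in z-VAD-fmk. Traf1 and Traf4 fell steeply, Traf5 and slightly Traf2, Birc3 and Xiap fell, and Traf6 rose. In all 7 of 9 members passed, 1 higher and 6 lower, where 56.1% of all genes passed, 28.2% higher and 27.9% lower. Traf1 fell by 2.54 ± 0.12 on the log2 scale (adjusted p = 2.39e-13), a 5.82-fold drop that left it still far above control. DESeq2 on all 6 libraries gave the same size (-2.55) without a pass (adjusted p = 0.123, SE 1.42), and on the TC and TCZ libraries alone it gave -2.55 with an SE of 0.11 and an adjusted p of 2.09e-121. Traf4 fell by 1.84 ± 0.09 (adjusted p = 2.39e-13), or 3.58-fold. Traf6 rose by 0.54 ± 0.08 (adjusted p = 4.79e-06), with every TCZ library above every TC library, and Traf5 fell by 0.62 ± 0.16 (adjusted p = 0.00264).

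The remaining members differed less between TC and TCZ. Traf3 (-0.04, 95% interval -0.19 to 0.10, adjusted p = 0.603) and Birc2 (-0.14, interval -0.30 to 0.02, adjusted p = 0.132) did not pass, and Birc2 passed with library totals as the scale (-0.20, adjusted p = 0.0267). Traf2 fell by 0.26 ± 0.08 (adjusted p = 0.00764), a call lost without TC 2 at the same size (-0.26, SE 0.12, adjusted p = 0.0549). Birc3 fell by 0.18 ± 0.07 (adjusted p = 0.0314). That call went when every gene was kept (adjusted p = 0.106) and without TC 1, TC 2, TCZ 1 or TCZ 2 (adjusted p = 0.134, 0.173, 0.0799 and 0.133), while the log2 value stayed between -0.22 and -0.17. Xiap fell by 0.23 ± 0.08 (adjusted p = 0.0281), and lost its call without TC 1 (-0.20, adjusted p = 0.163) and without TCZ 1 (-0.14, adjusted p = 0.29).

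Control 2 and TCZ 2, the shallower libraries, were left out together to see what rested on them. That leaves 1 library each of control and TCZ, so all of the spread in this fit comes from the TC pair, the lone libraries are assumed to vary like it, and the p-values say little about stability. The directions of the 27 member values were unchanged. Traf6 in TC was at 0.21 and Xiap at -0.62 in TC, -0.93 in TCZ against control and -0.32 in TCZ against TC. Traf4 was at -0.60, -2.39 and -1.79, and Birc3 at 2.76, 2.59 and -0.17.

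Levels of different genes were compared per length, as the authors' RPKM (reads scaled to gene length and library total). In control Traf4 was the most abundant at 16.6 ± 0.934 RPKM (SD, n = 2), followed by Xiap at 8.69 ± 0.421 and Traf3 at 6.58 ± 0.26. Birc2, Traf5, Traf6 and Birc3 lay between 4.75 and 4.88 RPKM, and each overlapped its neighbour in that order. Traf2 was at 3.64 ± 0.023 and Traf1 at 0.0219 ± 0.031. In TC Birc3 led at 29.8 ± 0.28, then came Traf3 at 13.4 ± 0.0323 and Traf1 at 12.6 ± 0.585, and no neighbours in the order overlapped. In TCZ Birc3 (25.3 ± 0.72) and Traf3 (12.5 ± 0.269) led again. Traf6 and Traf2 overlapped there, and Traf4 (2.65 ± 0.0389), Traf1 (2.06 ± 0.205) and Traf5 (1.56 ± 0.191) were lowest.

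The makeup of the TRAF pool changed with treatment. The summed RPKM of the 6 TRAF genes was 35.4 and 37.4 in the control pair, 52.2 and 52.9 in the TC pair, and 32.8 and 33.7 in the TCZ pair. These sums are scaled by library totals and not by TMM. The TMM factors were 1.04 and 1.12 in control but 0.917 and 0.971 in TCZ. On the TMM scale TC stays highest, but the control sums no longer exceed those of TCZ. Shares within a library do not depend on this scale. Traf4 held 45.5% ± 0.799 of the summed RPKM in control, 18.9% ± 0.693 in TC and 7.98% ± 0.262 in TCZ (SD, n = 2). Traf1 went from 0.0586% ± 0.0829 to 24.0% ± 0.9 and 6.2% ± 0.729, and Traf3 from 18.1% ± 0.0127 to 25.4% ± 0.286 and 37.5% ± 0.127. Traf6 held 13.1%, 9.94% and 22.0%. Libraries of a group were alike in these shares, and for Traf1, Traf3, Traf4 and Traf6 the 3 groups did not overlap.

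In the IAP pool the shift was between Xiap and Birc3. The summed RPKM of the 3 ligase genes was 18.5 and 18.1 in control, 44.8 in both TC libraries, and 36.9 and 39.5 in TCZ. Xiap held 47.4% ± 1.45 in control, 12.3% ± 0.427 in TC and 12.0% ± 1.03 in TCZ. Birc3 went from 25.9% ± 1.06 to 66.4% ± 0.7 and 66.2% ± 1.24, and the shares of TC and TCZ libraries overlapped. The Birc3 to Birc2 ratio was 0.956 and 0.992 in the control pair, 3.08 and 3.18 in the TC pair, and 3.1 and 2.98 in the TCZ pair. RPKM depends on the length used, and so do the shares and this ratio. With the union of GENCODE M21 exons, Traf5 was longer (4566 against 2147 bases) and so was Birc3 (5009 against 3544), which put Traf5 at 2.28 and Birc3 at 3.36 RPKM in control. Birc2 was then at 4.45 in control, so the near equality of Birc3 and Birc2 there depends on the length. Birc3 stayed above Birc2 in TC (21.1 and 8.69) and in TCZ (17.9 and 7.61). Traf4 in control and Birc3 in both treated groups stayed the most abundant of the 9.

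**Figure D3:**
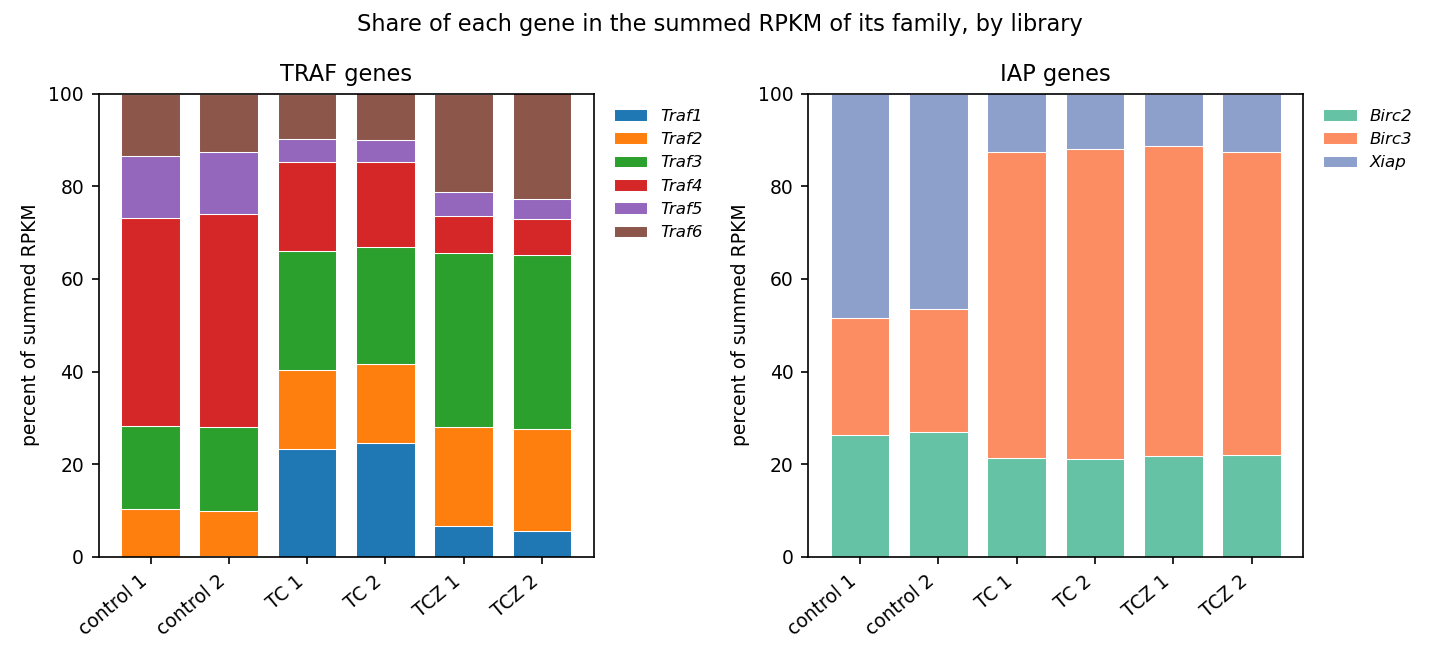
Stacked bars give each gene's percent of the summed RPKM of its family (vertical axes, 0 to 100%) in each of the 6 libraries, TRAF genes on the left and IAP genes on the right. Traf4 and Xiap make up the largest blocks in control, and Traf3 and Birc3 in the treated libraries.

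The members were also compared by pattern, as the distance between their log2 levels over the 6 libraries, each centred on the gene's own mean. Birc2 and Traf3 were the closest pair (distance 0.174), with Traf2 at 0.286 from Traf3 and 0.333 from Birc2. Traf5 and Xiap were 0.814 apart, and Traf1 was 7.06 from its nearest member, Birc3. Among 8119 other genes averaging 10 CPM or more, those nearest to Traf2 were Micall1 and U2surp (0.0726 and 0.0774), to Traf3 Papss2 and Ahcyl2 (0.0453 and 0.0779), and to Birc2 Topors and Thoc2 (0.0837 and 0.0876). Nearest to Birc3 were Rffl and Angptl4 (0.17 and 0.254) and to Traf1 Pdgfb and Ccl20, at the much larger distances of 2.13 and 2.23. For Traf4 they were Nsd1 and Dab2ip (0.149 and 0.172), for Traf5 Pml and Slc39a13 (0.123 and 0.16), for Traf6 Phactr4 and Acss2 (0.0757 and 0.0892), and for Xiap Chfr and Mtmr9 (0.106 and 0.117). Distances over 6 libraries in 3 groups describe these libraries only.

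Partners of the members were followed in lists of pathway genes, beginning with the receptors whose tails bind TRAFs. Of 19 in the table, 13 were tested, and in TC 5 were higher and 5 lower than in control, with a median log2 fold change of 0.50. Over all genes tested the median was 0.02 in TC against control, 0.05 in TCZ against control and 0.02 in TCZ against TC. The share of all genes that passed was 60.7%, 60.1% and 56.1% in the same order. Lists near these shares do not stand apart by their counts, such as the TNF superfamily ligands (63.6% in TC) and the IL-1 and Toll-like receptor arm (61.5% in TC). Cd40, a receptor that uses TRAF2, TRAF3 and TRAF6, rose from 3.24 ± 0.35 to 40.2 ± 1.78 CPM and stood at 28.2 ± 2.55 in TCZ (SD, n = 2). Tnfrsf12a, the TWEAK receptor, rose from 177 ± 10.6 to 629 ± 34.6 and was at 755 ± 80.1 in TCZ. Between TC and TCZ 1 receptor rose and 7 fell (median -0.51), among those that fell Tnfrsf1b, the gene of TNF receptor 2, at -1.22, and Eda2r, a receptor of ectodysplasin, at -0.60. TCZ against control gave 5 higher and 5 lower (median 0.04). Edar had no control count, and setting it to its bound left both medians against control as they were.

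Of 18 ligands of the TNF superfamily, 11 were tested. In TC 5 were higher and 2 lower (median 0.62), in TCZ against control 5 and 2 (0.0037), and in TCZ against TC 3 and 4 (0.15). Tnf itself went from 0.0206 CPM in control to 1.56 ± 0.406 in TC and 8.54 ± 0.374 in TCZ. Tnfsf18, the ligand GITRL, rose from 1.57 to 24.9 CPM in TC (log2 4.01) and was at 3.91 in TCZ, a fall of 2.70 from TC on the log2 scale. Tnfsf15 fell by 4.23 between TC and TCZ, to 0.176 CPM.

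At TNF receptor 1, 14 complex I partners were tested. In TC 6 were higher and 5 lower (median 0.18), in TCZ against control 4 and 6 (-0.12), and in TCZ against TC 1 and 5 (-0.07). The receptor gene Tnfrsf1a went from 102 CPM in control to 60.3 in TC and 25.0 in TCZ, a fall of 1.27 on the log2 scale between the treated groups. Rbck1, which encodes the HOIL-1 subunit of the linear ubiquitin ligase, fell by 1.21 in TC. Tnfaip3, the gene of the ubiquitin-editing enzyme A20, rose by 6.40 in TC and by a further 1.57 between TC and TCZ.

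Genes of the noncanonical NF-kB pathway, whose kinase NIK is kept low by TRAF2, TRAF3 and the cIAP ligases, had the highest median of the lists described here in TC. The lists were chosen with earlier results of these data known, so this place among them is a description only. Whether the pathway was released was not tested. Of 7 tested, 6 rose and 0 fell (median 2.97), in TCZ against control 5 rose and 1 fell (2.72), and in TCZ against TC 0 rose and 3 fell (-0.17). Relb, a subunit of the pathway's transcription factor, rose from 12.9 ± 0.89 to 169 ± 2.46 CPM (log2 3.72), and its partner Nfkb2 from 49.3 ± 3.16 to 386 ± 19.1 (log2 2.97). Map3k14, which encodes NIK, went from 9.57 to 78.7 and 81.3 CPM. The chemokine gene Cxcl12 and the deubiquitinase gene Otud7b fell by 0.74 and 0.56 between TC and TCZ.

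The IL-1 and Toll-like receptor arm that runs through TRAF6 was mixed. Of 26 genes tested in TC, 11 were higher and 5 lower (median 0.07), in TCZ against control 8 and 11 (-0.14), and in TCZ against TC 2 and 10 (-0.16). Il1r1, the IL-1 receptor, rose from 57.7 to 263 CPM in TC and was at 142 in TCZ. Sqstm1, the TRAF6-binding scaffold p62, rose by 1.62 in TC. Irak2, a kinase upstream of TRAF6, fell by 1.92 between TC and TCZ, whereas the ubiquitin ligase gene Peli1 rose by 1.53, alongside the 0.54 of Traf6.

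TRAF-interacting genes were likewise split. Of 16 tested, 5 were higher and 7 lower in TC (median 0.03), 6 and 8 in TCZ against control (-0.25), and 6 and 5 in TCZ against TC (-0.10). Tank, an adaptor that binds several TRAFs, rose from 40.03 to 191 CPM in TC, and Sphk1, a sphingosine kinase that binds TRAF2, from 22.6 to 96.7. Between TC and TCZ Tdp2, a DNA repair enzyme also known as TTRAP, rose by 1.06 and Traf3ip2, the IL-17 receptor adaptor, fell by 1.71.

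Of 7 other IAP genes in the list, 4 were tested, and their median in TC was -0.16. Birc5 (survivin) was the 1 that passed there and fell by 0.44 (adjusted p = 4.52e-05), while Naip2 did not pass (-1.66, adjusted p = 0.0909) and Birc6, the giant IAP, went from 303 to 328 and 370 CPM. In TCZ against control 1 was higher and 2 lower (median 0.0053), and in TCZ against TC 1 passed, Birc6, which rose by 0.17 (adjusted p = 0.0383, list median -0.41). Naip2 and Naip5 had only 59 and 36 counts over all libraries. The median in TCZ against TC lies between Naip5 (-0.99 ± 0.92) and Birc5 (0.16 ± 0.08), so it rests partly on a gene with few reads. Of 4 IAP antagonists and cofactors, 3 rose in TC and none fell (median 0.38), with 2 and 0 in TCZ against control (0.23) and 0 and 2 in TCZ against TC (-0.22). Xaf1, an interferon-induced partner of XIAP, rose from 3.8 ± 0.49 to 20.1 ± 1.46 CPM and was at 5.38 ± 1.11 in TCZ, and Htra2, a mitochondrial protease that binds IAPs, rose by 0.47 in TC and fell by 0.46 between TC and TCZ. Casp9, an initiator caspase that XIAP binds, fell in TC (log2 -1.19) and from TC to TCZ (-0.52).

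**Figure D4:**
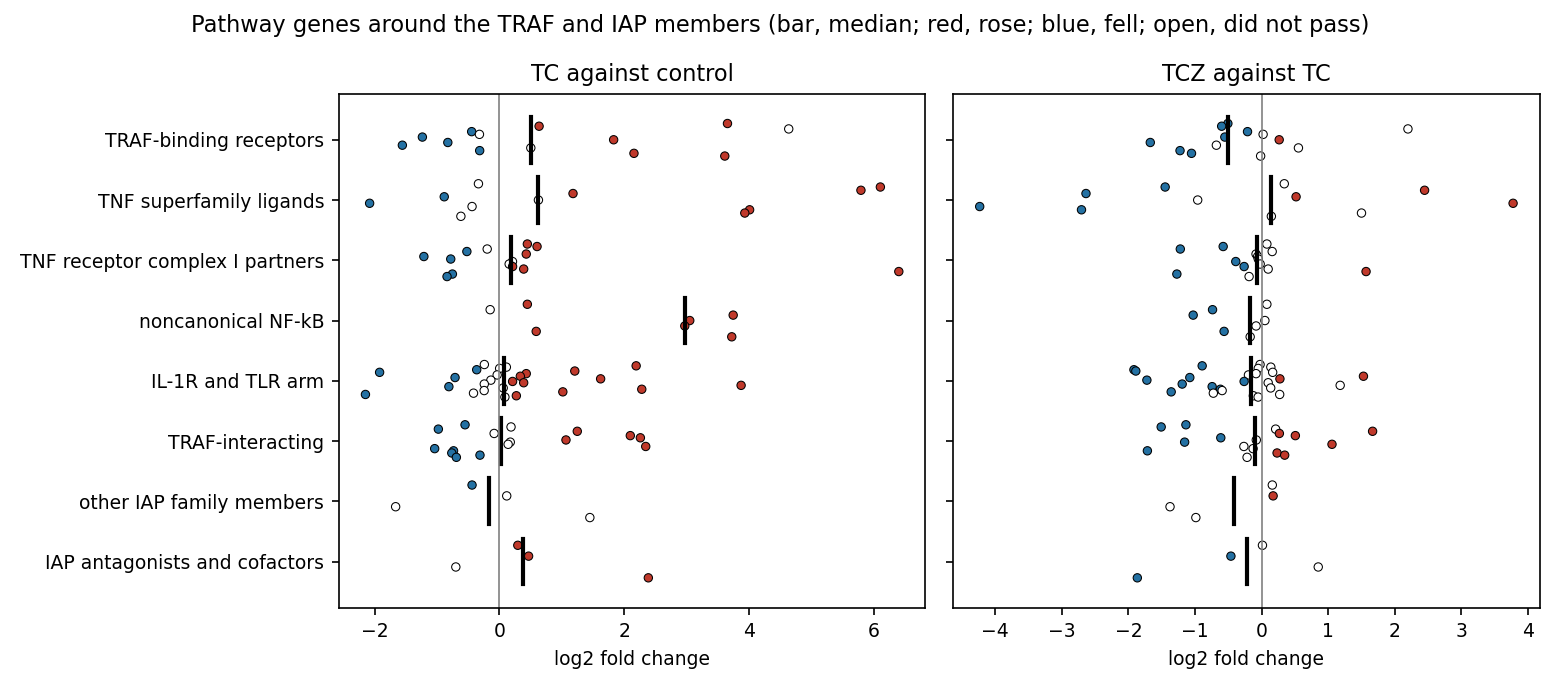
Each point is a tested gene of 1 of the pathway lists named on the vertical axis, placed by its log2 fold change (horizontal axes) in TC against control (left) and TCZ against TC (right), with red for rose, blue for fell and open for not passed. Black bars are list medians. In TC the noncanonical NF-kB list, chosen like the others with earlier results of these data known, lies farthest right, at 2.97.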

How the data were processed

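RNA-seq counts per gene were analysed from 6 libraries of mouse embryonic fibroblasts in 3 groups of 2. The authors deposited 1 table holding raw counts beside RPKM values, per the file headers. The submitters' processing notes name bcl2fastq, HISAT2 2.1.0, HTSeq and build mm10. An annotation version, strand setting or read filter is not stated there. The deposited RPKM values were counts over the table's gene length and the library total, and recomputing them gave differences of at most 5e-07. Library totals ran from 24922627 to 52909926 counts.

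Counts were tested in R 4.3.3 with edgeR 4.0.16 (filterByExpr, minimum count 10, TMM factors, 1 model of all 6 libraries with 3 residual degrees of freedom, glmQLFit and glmQLFTest, Benjamini-Hochberg over all 18563 genes tested, threshold 0.05). CPM was scaled by TMM, and SE is the log2 fold change over the root of F. Fold changes are relative to the TMM scale. Alternatives used DESeq2 1.42.0, limma 3.58.1 (voom), other scalings, filters and sets of libraries, and the procedure was tested on simulated data. The members and lists were chosen with earlier results of these data known. Named besides the members are, per list, at least the 2 genes with the smallest adjusted p in TC against control and in TCZ against TC, and the 2 genes nearest in pattern to each member. Some genes that these rules cover are not reported here, nor is the caspase list as a whole.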

Additional observations from a re-analysis of the deposited data

How the results depend on the processing

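Over the 18 alternatives to the 27 member values, 460 refits kept their direction and their side of the threshold, 25 lost their call, 1 gained one and none changed sign. The replicate number as a block changed no call (members called: 9, 9 and 7), and the numbers of a group need not pair, since differences between libraries 2 and 1 correlated across 8579 genes at 0.00838 between control and TC, 0.228 between control and TCZ and -0.145 between TC and TCZ. With the TC numbers exchanged in the block, an alternative chosen after seeing the data, 7 members and 10637 genes passed in TCZ against TC. A test against a log2 threshold of 1 left 4 members and 3568 genes in TC against control, 5 and 4314 in TCZ against control, and 2 (Traf1 and Traf4) and 2267 in TCZ against TC. Leaving out 1 library at a time, where the lone library of its group is assumed to vary like the other groups, gave 8 to 9, 9 and 5 to 7 members, and 9355 to 11662, 9423 to 11397 and 8639 to 10335 genes. Library totals alone moved the median of all genes by -0.14, -0.20 and -0.06 on the log2 scale. DESeq2 on the 2 groups compared, also chosen after seeing the data, left all 27 member values on their side of the threshold. With exon-union lengths, 45 of 54 RPKM levels and shares moved by more than 1 SD. With TMM-scaled totals, 19 RPKM levels moved by more than 1 SD and 8 did not. With 2 libraries per group, small differences such as those of Birc3 and Xiap between TC and TCZ rest on few degrees of freedom.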
